A study of Mus musculus with 37 samples.

Results

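Entry into mitosis and its completion rest on a shared set of genes, and 36 of them were followed here in mature luminal cells of the mouse mammary gland. The genes were listed by symbol and matched to Ensembl identifiers. No measured value is in the rule, but the genes were chosen with earlier results of these data known. All 36 matched, out of 52636 genes with deposited counts. All 36 also passed the filter on low counts that left 18426 genes for testing.

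The cells had been sorted by FACS from mammary glands of mice that were raised to 8 weeks and ovariectomized, so that every group, controls included, lacked the ovarian source of hormones. Pellets were then given for 8 days. The treatments were placebo, E2 (estradiol), P4 (progesterone) and E2+P4, each in mice whose Esr1, the gene of estrogen receptor alpha, was WT, D542G or Y541S. The 37 libraries made 12 groups of 3, except WT P4 with 4, and are named by group and number. The submitters describe replication within a group as biological, and the libraries were taken that way here. The labels used here do not say how the Esr1 alleles were introduced. Nor do they say whether 1 library stands for 1 animal or for several pooled. The p-values therefore speak of the spread among libraries, be they single animals or pools.

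A cell in G2 phase accumulates cyclins A and B, which bind the kinase CDK1, and activation of cyclin B-CDK1 starts mitosis. Spindle kinases and motors then line up the chromosomes at their kinetochores, the spindle checkpoint holds back the anaphase-promoting complex, APC/C, until every kinetochore is attached, and cytokinesis divides the cell. Transcripts of these genes are kept low in resting cells by the DREAM complex and rise in G2 under B-MYB and FOXM1. In the mammary gland, estrogen and progesterone drive epithelial growth, and mature luminal cells include those that carry the hormone receptors.

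DREAM and B-MYB act largely through a promoter element called the CHR, often beside CCAAT boxes that bind NF-Y. RefSeq promoters of GRCm38.p6, from 250 bases before to 50 after the start, were present in the table used for 32 of the 36 genes, all but Ccna2, Aurkb, Kif20a and Tpx2. The CHR, searched as TTTGAA or TTCGAA on either strand, was found in 27 of 32 (84.4%), against 5254 of 27025 promoters in the table (19.4%). It was found in 36 of 58 promoters of other G2 and M phase genes (62.1%) and in 8 of 29 of S phase genes (27.6%). CCAAT on either strand was found in 26 of 32 (81.2%), against 37.9% of all promoters. Both were found in 24 of 32 (75.0%), against 7.7% of all. A match is a run of letters and was not tested as a binding site.

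Promoters of 5 genes are printed 5′ to 3′ in the direction of transcription, with CHR and CCAAT letters in capitals on whichever strand they lie. Ccnb2 and Cdk1 are partners at entry into mitosis, and Aurka, Anln and Ccnf were each the one gene of the set called in some comparison below. All 5 lie on the minus strand: Ccnb2 at chr9:70421505-70421804, Cdk1 at chr10:69352863-69353162, Aurka at chr2:172370521-172370820, Anln at chr9:22389157-22389456 and Ccnf at chr17:24251360-24251659. They hold 2, 2, 1, 2 and 2 CHR matches and 3, 3, 2, 0 and 2 CCAAT matches, in that order. Anln is the one of these 5 without CCAAT in the window.
Ccnb2: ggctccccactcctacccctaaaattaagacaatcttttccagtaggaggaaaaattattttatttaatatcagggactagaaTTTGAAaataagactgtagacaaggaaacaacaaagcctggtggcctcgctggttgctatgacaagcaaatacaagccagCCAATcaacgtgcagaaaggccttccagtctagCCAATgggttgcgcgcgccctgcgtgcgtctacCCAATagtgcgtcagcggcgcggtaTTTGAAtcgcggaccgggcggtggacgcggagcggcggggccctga
Cdk1: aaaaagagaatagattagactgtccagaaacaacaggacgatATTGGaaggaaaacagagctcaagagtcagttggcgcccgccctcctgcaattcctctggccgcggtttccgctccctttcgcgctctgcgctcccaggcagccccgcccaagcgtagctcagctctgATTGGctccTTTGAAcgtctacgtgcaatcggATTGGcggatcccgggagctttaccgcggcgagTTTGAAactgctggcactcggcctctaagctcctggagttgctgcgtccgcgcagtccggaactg
Aurka: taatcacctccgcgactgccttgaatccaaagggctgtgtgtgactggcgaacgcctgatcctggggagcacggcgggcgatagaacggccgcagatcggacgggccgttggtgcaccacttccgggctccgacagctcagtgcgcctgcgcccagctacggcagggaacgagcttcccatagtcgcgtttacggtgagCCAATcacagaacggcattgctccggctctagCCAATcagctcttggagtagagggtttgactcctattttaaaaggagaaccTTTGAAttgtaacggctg
Anln: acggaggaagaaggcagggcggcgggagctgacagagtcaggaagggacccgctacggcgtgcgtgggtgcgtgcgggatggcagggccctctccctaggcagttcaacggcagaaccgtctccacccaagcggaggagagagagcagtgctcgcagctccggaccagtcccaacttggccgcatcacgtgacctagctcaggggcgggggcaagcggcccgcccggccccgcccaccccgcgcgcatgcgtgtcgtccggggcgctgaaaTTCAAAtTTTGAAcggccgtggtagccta
Ccnf: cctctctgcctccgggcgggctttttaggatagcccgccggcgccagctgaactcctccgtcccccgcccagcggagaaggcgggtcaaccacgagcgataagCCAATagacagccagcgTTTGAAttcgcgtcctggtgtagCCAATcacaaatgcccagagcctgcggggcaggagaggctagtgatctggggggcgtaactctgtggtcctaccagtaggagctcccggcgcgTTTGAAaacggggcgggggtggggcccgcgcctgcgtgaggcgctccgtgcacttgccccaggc

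The libraries held 25.69 to 52.24 M counts each. Levels are CPM, counts per M of a library's total after TMM scaling, and are compared between libraries for 1 gene at a time, never between genes. Krt8 and Krt18, which mark luminal cells, were at 838.8 CPM or more and 3581.6 CPM or more in every library. Markers of other cells were also present. Dcn of fibroblasts ran from 17.1 to 4053.8 CPM and Col1a1, also of fibroblasts, from 0.486 to 68.6 CPM. The 2 did not move together: Col1a1 was at 3.06 and 6.6 CPM in Y541S placebo 2 and 3, where Dcn was at 3985.1 and 4053.8 CPM. Cd74 of antigen-presenting cells ran from 5.41 to 110.1 CPM and Krt5 of basal cells from 1.17 to 281.4 CPM. Ptprc, the pan-leukocyte CD45 gene, was at 0 in 2 libraries and Cd3e, a T cell gene, in 23. Esr1 was detected in every library; it ran from 578.8 to 831.5 CPM in WT placebo and from 55.1 to 104.7 CPM in Y541S placebo. Counts of Esr1 do not show which allele was expressed and so do not check the genotype labels.

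Both WT placebo 2 and WT P4 2 stood apart from the rest of their groups in the genes described here and in others of the cell cycle. All 36 were higher in WT placebo 2 than in both other WT placebo libraries, as were 36.1% of tested genes, and 35 of 36, all but Ccnf, were higher in WT P4 2 than in the other 3 WT P4 libraries, as were 28.2%. So were 70 of 72 other G2 and M genes and 31 of 33 S phase genes in WT placebo 2, and 65 of 72 and 32 of 33 in WT P4 2. Some of the markers of basal and myoepithelial cells, whose layer surrounds the luminal cells, moved with this. In WT placebo 2, 10 of 12 such markers lay above both other libraries, and their summed level was 934.2 CPM against 61.4 and 88.2 CPM. In WT P4 2, 6 of 12 lay above, and the sum was 830.1 CPM against 80.6 to 84.1 CPM. None of the 12 was at 0 in these libraries. Adipocyte markers lay above in 4 of 5 cases in WT placebo 2 and in 0 of 5 in WT P4 2. Krt5, a keratin of basal cells, was at 281.4 CPM in WT placebo 2 against 2.4 and 4.24 CPM, and Acta2, the smooth-muscle actin of myoepithelial cells, was at 48.2 CPM against 26.2 and 43.6 CPM. The part of basal or fat cells in the levels of these 2 libraries was not tested. Results that use WT placebo or WT P4 are given with and without both libraries. As both were recognised partly by the genes of this set, the values without them describe the other libraries and are no independent support.

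The summed level of the 36 genes was lowest in WT placebo 1 and highest in Y541S E2 1. The WT placebo libraries summed to 143.1, 1206.4 and 189.7 CPM, and the WT P4 libraries to 814.1, 180.8, 165.4 and 170.5 CPM. In each group the highest sum was that of the library that stood apart, and the remaining 5 libraries lay between 143.1 and 189.7 CPM. The WT E2 libraries summed to 1505.2, 820.8 and 661.8 CPM, and the WT E2+P4 libraries to 1440.3, 333.3 and 530.8 CPM. All 6 lay above those 5, and none but WT E2 1 and WT E2+P4 1 lay above WT placebo 2.

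D542G placebo libraries summed to 377.6, 174.3 and 688.1 CPM, and D542G E2 libraries to 1319.9, 1865.2 and 1270.2 CPM. D542G P4 libraries summed to 833.5, 417.6 and 658.6 CPM, and D542G E2+P4 libraries to 1478.6, 624.7 and 1609.7 CPM. The E2 libraries of D542G lay above all its placebo libraries, while D542G E2+P4 2 lay below D542G placebo 3. Y541S placebo libraries summed to 860.5, 1105.3 and 1201.2 CPM, Y541S E2 libraries to 2996.1, 1716.2 and 2472.4 CPM, Y541S P4 libraries to 1550.2, 1605.2 and 1665.9 CPM, and Y541S E2+P4 libraries to 2223.8, 1960.7 and 2255.4 CPM. Each of the 3 hormone groups of Y541S lay wholly above its placebo group. Fewer cells in the cycle and less RNA of these genes per cell cannot be told apart in bulk RNA.

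**Figure D1:**
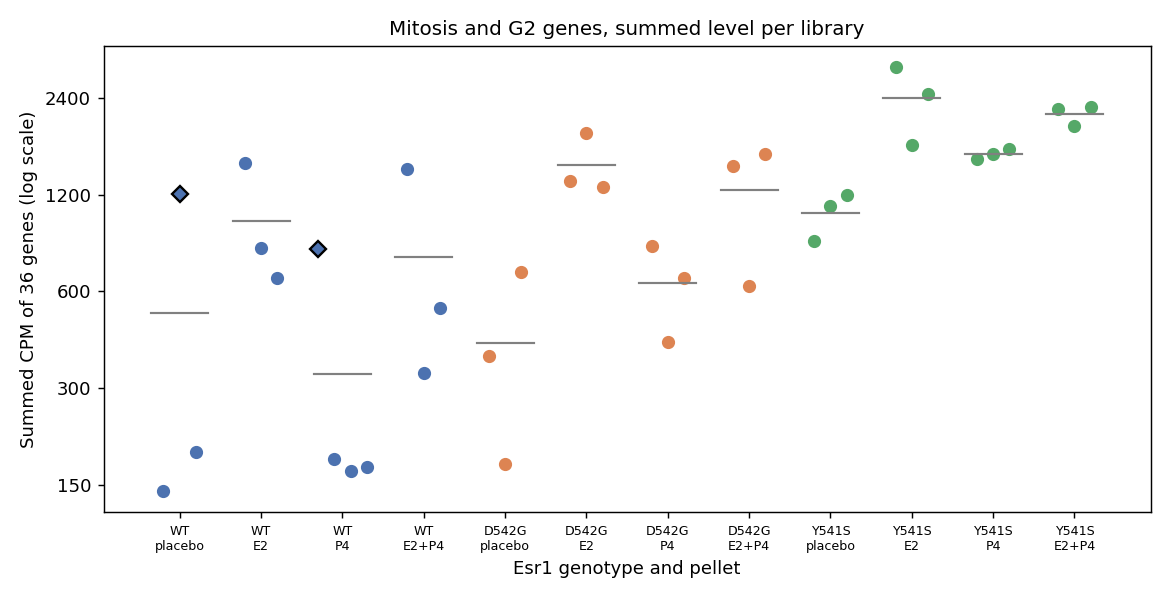
Summed level of the 36 genes in each library (CPM, log axis), by Esr1 genotype and treatment. Points are libraries, grey bars are group means and diamonds with a black edge are WT placebo 2 (1206.4 CPM) and WT P4 2 (814.1 CPM), which lie far above the other libraries of their groups.

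The highest values fell in few libraries. Y541S E2 1 held the highest value of 28 of the 36 genes. Ccnf, Ube2c, Top2a and Mki67 were highest in Y541S E2+P4 3, Smc2 in Y541S E2+P4 1, and Ccnb2, Cdc20 and Cenpa in D542G E2. By group mean, 25 genes were highest in Y541S E2, 9 in Y541S E2+P4 and 2, Cdc20 and Cenpa, in D542G E2. These counts describe the levels and were not tested.

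The cyclins and mitotic kinases spanned wide ranges. Cdk1, the kinase that drives entry into mitosis, ran from 2.0 to 137.1 CPM over the 37 libraries, and Ccnb2, one of its B-type cyclins, from 1.67 to 144.7 CPM. Ccnb1, the other B-type cyclin, ran from 0.0522 CPM (a count of 2) to 17.8 CPM; 3 processed pseudogenes resemble its transcript closely, so its counts are uncertain. Ccna2 (cyclin A2) ran from 1.28 to 129.9 CPM, and Plk1, a kinase of entry and spindle assembly, from 0.0811 to 84.0 CPM. Aurkb, the kinase of the chromosomal passenger complex, ran from 1.15 to 99.9 CPM. Ttk, a kinase of the spindle checkpoint, had a count of 0 in D542G placebo 2 alone and reached 18 CPM. Aurka and Ccnf had narrower ranges, 9.03 to 75.5 CPM for Aurka, the kinase of spindle poles, and 3.63 to 77.9 CPM for Ccnf, cyclin F, which binds no CDK and recruits substrates to a ubiquitin ligase.

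Among the genes of the checkpoint and APC/C, Bub1 ran from 0.027 to 44.5 CPM and Bub1b, which encodes the checkpoint protein BUBR1, from 7.24 to 145.6 CPM. Cdc20, the activator of APC/C, ran from 3.86 to 174.8 CPM, Ube2c, its ubiquitin-conjugating enzyme, from 0.448 to 97.8 CPM, and Cdca3 from 1.51 to 76.6 CPM. At the centromere, Cenpa, the histone H3 variant that marks it, ran from 7.0 to 109.2 CPM. The kinetochore genes Cenpe, Cenpf, Ndc80 and Nuf2 peaked at 32.0, 34.5, 22.5 and 26.7 CPM. Birc5 (survivin) and Cdca8 (borealin) of the chromosomal passenger complex peaked at 80.5 and 100.6 CPM.

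The spindle genes had their lowest values in WT or D542G libraries and their highest, for all 10, in Y541S E2 1. They are the motors Kif11 (peak 65.4 CPM), Kif20a (92.0), Kif23 (59.9), Kif2c (61.8) and Kif4 (47.8), and the microtubule proteins Tpx2 (89.5), Nusap1 (72.4), Hmmr (43.6), Ckap2l (75.4) and Prc1 (93.4). Prc1 overlaps other genes over its whole span, Kif20a over 26.9%, Ube2c over 18.6%, Ccna2 over 11.8%, Cdca8 over 10.9% and Plk1 over 9.7%, and Kif4 shares 684 transcript bases with Pdzd11. The use of strand in counting was not given in the sources used here, so the values of these 7 genes are uncertain. For cytokinesis, Anln (anillin, which scaffolds the contractile ring) ran from 7.97 to 289.7 CPM and Ect2, which activates RhoA there, from 2.61 to 79.3 CPM. Of the chromosome genes, Top2a (topoisomerase II alpha) ran from 2.09 to 168.6 CPM, Smc2 (a condensin subunit) from 4.13 to 49.9 CPM and Mki67 (Ki-67) from 0.672 to 57.3 CPM.

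**Figure D2:**
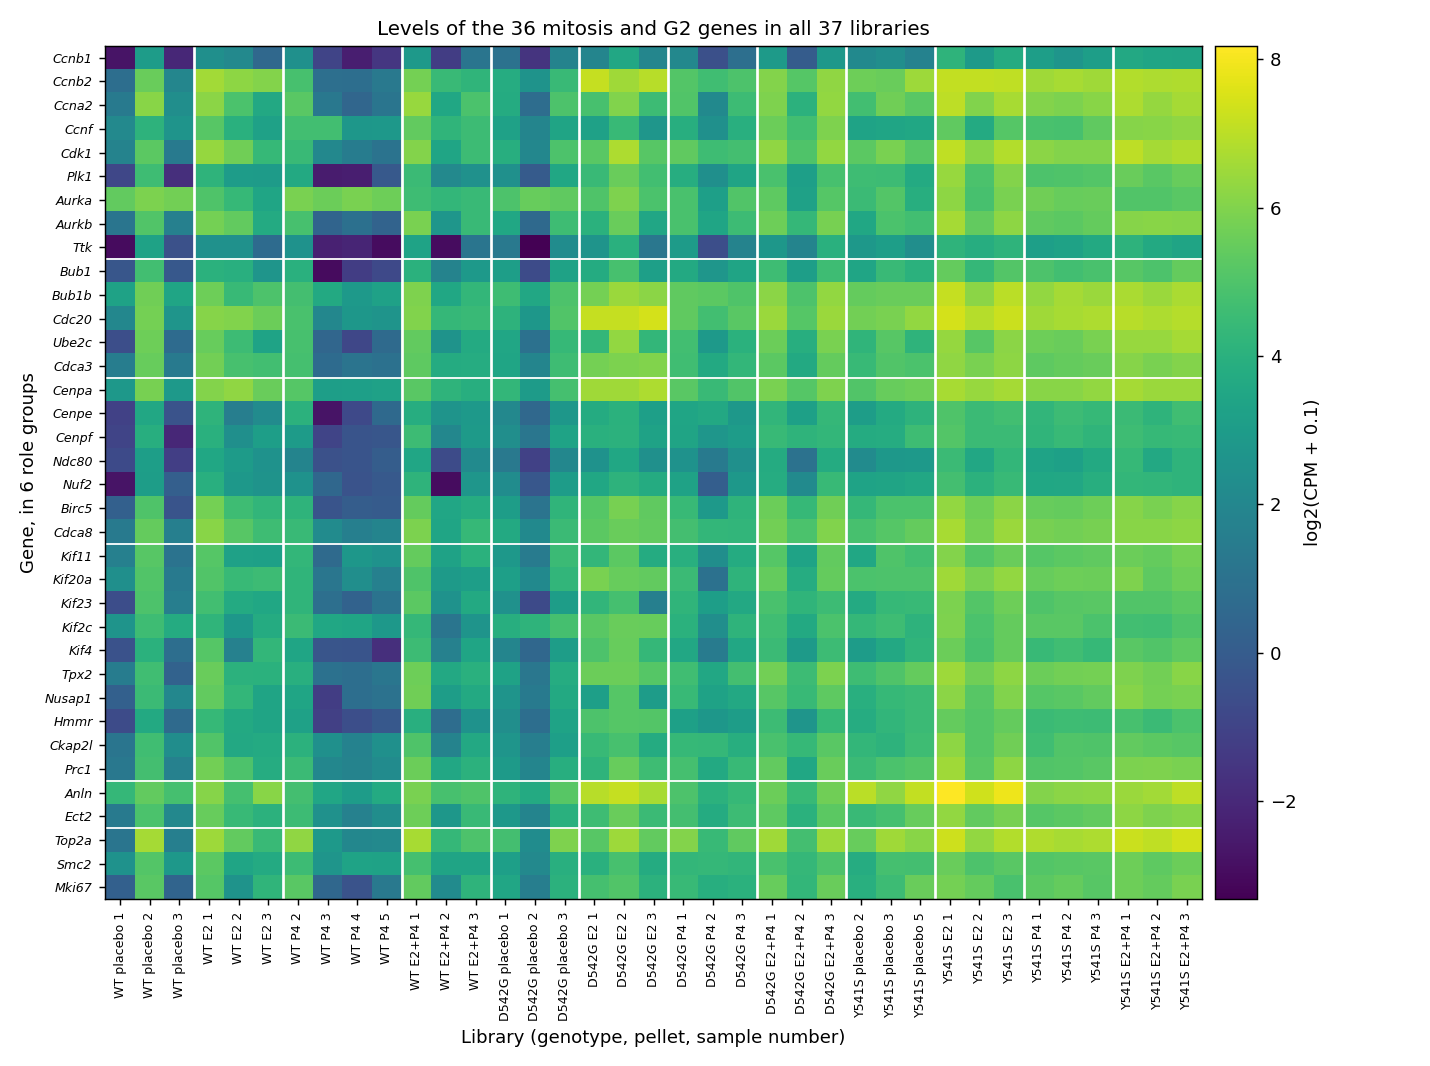
Level of each of the 36 genes (log2 of CPM + 0.1, colour scale) in each of the 37 libraries, with genes in 6 role groups. Columns WT placebo 2 and WT P4 2 are brighter than the other libraries of their groups for nearly every gene, and Aurka varies least over the WT columns.

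In WT cells the effect of E2 on these genes depended on WT placebo 2. Cdk1 was at 3.42, 38.4 and 2.47 CPM in WT placebo and at 82.4, 50.7 and 21.0 CPM in WT E2. The library that stood apart lay inside the E2 range, and the other placebo libraries lay below it. Log2 fold changes below are given ± SE from edgeR's quasi-likelihood test, fitted on all 37 libraries. A call means an adjusted p under 0.05, by Benjamini-Hochberg over every gene tested. Shares of all genes called are given only for edgeR with all libraries and without WT placebo 2 and WT P4 2. Counts by DESeq2, at an unadjusted p or under other alternatives have no such share beside them. Those counts show how a result moves with the processing and cannot be read as particular to the set. Cdk1 differed by 1.80 ± 0.87 (adjusted p = 0.116) with all libraries and by 4.12 ± 0.80 (adjusted p = 3.23e-04) without WT placebo 2 and WT P4 2.

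Mki67, the usual marker of cycling cells, was at 1.04, 37.7 and 1.21 CPM in WT placebo and at 35.2, 5.83 and 18.4 CPM in WT E2. Top2a was at 2.09, 97.8 and 3.06 CPM against 90.7, 42.0 and 22.3 CPM. Birc5 was at 1.04, 32.4 and 0.702 CPM against 54.2, 24.5 and 18.7 CPM. For both Mki67 and Top2a, WT placebo 2 was the highest of the 6 libraries, and for Birc5 it was second. With all libraries, Mki67 differed by 0.57 ± 1.08 (adjusted p = 0.728), Top2a by 0.59 ± 1.05 (adjusted p = 0.711) and Birc5 by 1.51 ± 1.02 (adjusted p = 0.272). Without both libraries, Mki67 rose by 4.14 ± 0.86 (adjusted p = 6.31e-04), Top2a by 4.33 ± 0.90 (adjusted p = 6.31e-04) and Birc5 by 5.21 ± 0.79 (adjusted p = 1.76e-05). Aurkb was at 2.12, 32.7 and 3.12 CPM against 55.5, 43.2 and 13.1 CPM, and moved from 1.56 ± 1.05 (adjusted p = 0.269) to 3.83 ± 0.95 (adjusted p = 0.0032). Ccnb1 was at 0.0522, 8.22 and 0.14 CPM against 5.24, 4.11 and 1.39 CPM, and moved from 0.35 ± 1.24 (adjusted p = 0.864) to 5.19 ± 1.31 (adjusted p = 0.00359).

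Over the set, 0 of 36 genes were called higher and 1 lower in WT E2, Aurka, where 15.6% of all tested genes were called higher and 15.9% lower. The median difference was 0.96, against 0.03 over all genes. Without both libraries, 33 were called higher, all but Aurka, Ttk and Kif2c, and 0 lower, against 14.7% and 14.3% of all genes, with a median of 3.77. Without WT placebo 2 alone the count was 32, and without WT placebo 3, WT E2 2 or WT E2 3 it was 0. At an unadjusted p under 0.05 with all libraries 6 genes passed, and DESeq2 called 3. By role, the median without both libraries was 3.83 for the 9 cyclins and kinases, 4.15 for the 7 centromere and kinetochore genes, 3.27 for the 10 spindle genes and 2.14 for Anln and Ect2. Other cell type markers moved in this comparison with all libraries. Among luminal progenitor and alveolar markers 5 of 9 were called higher, and their sum was 7124.6 to 24923.1 CPM in WT E2 against 3197.9 to 3787.7 CPM. Kit, a receptor of luminal progenitors, was at 660.7, 886.3 and 1159.6 CPM in WT E2 against 175.3, 167.9 and 160.6 CPM. Among leukocyte markers 4 of 11 were called higher, with a sum of 69.0 to 197.5 CPM against 8.36 to 10.6 CPM, and 3 to 6 of the 11 were at 0 in each WT E2 library, Cd3e in WT E2 2 and 3 among them. Erythroid markers summed to 263.3 to 385.6 CPM against 28.0 to 72.3 CPM, with 2 of 4 called higher. Of hormone-sensing markers 7 of 10 were called lower and 1 higher. Their part in the result was not tested.

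The effect of E2+P4 in WT cells depended on WT placebo 2 as well. Cdk1 was at 66.5, 10.7 and 23.8 CPM in WT E2+P4, Mki67 at 42.6, 4.51 and 17.6 CPM and Top2a at 103.5, 20.1 and 31.3 CPM. Aurkb was at 59, 6.4 and 22.3 CPM there, Birc5 at 43.4, 11.1 and 14 CPM and Ccnb1 at 7.3, 0.32 and 2.12 CPM. WT E2+P4 1 was the highest of the 3 for each of these 6 genes. With all libraries 0 of 36 were called higher than in WT placebo and Aurka was called lower, against 11.8% and 11.5% of all genes, and the median was 0.70. Without both libraries 31 were called higher, against 11.1% of all genes, with a median of 3.46, and Mki67 rose by 4.26 ± 0.87 (adjusted p = 7.34e-04). Leaving out WT placebo 2 alone gave 28. DESeq2 called 2 with all libraries, and without a filter on low counts edgeR called 0. Endothelial markers summed to 300.2 to 478.0 CPM in WT E2+P4 against 38.7 to 48.5 CPM in WT placebo (2 of 7 called higher), and leukocyte markers to 30.3 to 146.0 CPM against 8.36 to 10.6 CPM (2 of 11 called higher). The endothelial genes Pecam1 and Cdh5 were not higher in every WT E2+P4 library. Pecam1 was at 4.76, 36.3 and 9.06 CPM against 6.01 to 8.71 CPM in WT placebo. Cdh5 was at 0.648, 4.42 and 0.948 CPM against 0.255 to 0.842 CPM. Of hormone-sensing markers 6 of 10 were called lower and 1 higher. Their part in the result was not tested. P4 alone called 0 of 36 with all libraries, where 0.923% of all genes were called higher and 0.505% lower, and also 0 without both. At an unadjusted p under 0.05 1 gene passed for P4, DESeq2 called 0, and without WT P4 2 alone 7 genes were called lower. WT P4 2 held the highest value of its group for Aurkb (28 CPM against 1.15 to 1.79 CPM), Birc5 (17.5 CPM against 0.703 to 0.961 CPM) and Ccnb1 (5.29 CPM against 0.0961 to 0.406 CPM). The median of the set for P4 moved from -0.89 with all libraries to 0.02 without both.

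In D542G cells 5 of the genes rose after E2. Ccnb2 was at 13.9, 5.86 and 21.9 CPM in D542G placebo and at 144.7, 93.8 and 121.7 CPM in D542G E2. Cdc20 was at 17.2, 6.61 and 32.7 CPM against 142.2, 141.5 and 174.8 CPM, and Cenpa at 19.3, 7.74 and 27.6 CPM against 93.9, 91.6 and 109.2 CPM. All 3 groups of placebo values lay far below the E2 values. Anln was at 17.5, 12.8 and 36.6 CPM against 122.6, 143.7 and 102.7 CPM, and Bub1b at 24.4, 11.9 and 31.3 CPM against 55.4, 88.1 and 72.1 CPM, again with no overlap. These 5 of 36 genes were called higher and 0 lower, against 8.36% and 7.34% of all genes. Anln rose by 2.46 ± 0.45 (adjusted p = 3.11e-04), Cdc20 by 3.02 ± 0.74 (adjusted p = 0.00479), Cenpa by 2.43 ± 0.59 (adjusted p = 0.00493), Ccnb2 by 3.11 ± 0.90 (adjusted p = 0.0172) and Bub1b by 1.67 ± 0.56 (adjusted p = 0.042). The calls of Anln, Cdc20 and Cenpa held in all 12 alternatives run.

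None of Mki67, Top2a, Ccnb1, Cdk1, Aurkb and Birc5 was called for E2 in D542G cells with all libraries. Top2a was at 26.6, 4.79 and 62.3 CPM in D542G placebo and at 36.4, 90.1 and 42.3 CPM in D542G E2, and differed by 0.85 ± 1.06 (adjusted p = 0.635). The placebo group itself was spread so widely that its highest library lay inside the E2 range. Mki67 was at 11.1, 2.95 and 16.6 CPM against 27.5, 32.8 and 16.6 CPM, and differed by 1.33 ± 1.10 (adjusted p = 0.447). Cdk1 was at 14.7, 3.95 and 30.8 CPM against 37.8, 110.1 and 36.6 CPM, and differed by 1.90 ± 0.87 (adjusted p = 0.143). The set's median was 1.76, against 0.01 over all genes, and 22 of 36 genes did not overlap, all of them higher after E2, as did 18.6% of all genes in that direction. DESeq2 called 11, and without D542G placebo 1 or D542G placebo 2 edgeR called 3. Shares of all genes under these settings are not given. The fit without WT placebo 2 and WT P4 2 called 17 higher, against 8.33% of all genes, although neither is in the comparison: the fit shares 1 spread over all libraries, so that Ccnb2 kept 3.11 with an SE of 0.41 in place of 0.90. The set's median there was 1.75. Hormone-sensing markers summed to 33250.9 to 36490.9 CPM in D542G E2, against 20851.9 to 24587.8 CPM in D542G placebo, with 3 of 10 called higher and 2 lower. Their part in the result was not tested.

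The other genes of this panel were as uneven among D542G placebo libraries. Aurkb was at 11.4, 1.43 and 24.4 CPM in D542G placebo, at 16.4, 47.2 and 11.1 CPM after E2, at 29.2, 10.9 and 23.6 CPM after P4 and at 50.1, 20.2 and 56.2 CPM after E2+P4. Birc5 was at 8.36, 2.04 and 18.5 CPM, then 35, 56.7 and 41.7 CPM, 21.5, 7.48 and 17.8 CPM, and 47.7, 21 and 50.8 CPM. Ccnb1 was at 1.93, 0.227 and 3.48 CPM, then 3.72, 11.9 and 3.74 CPM, 4.01, 0.608 and 1.73 CPM, and 7.71, 0.912 and 6.88 CPM. D542G placebo 2 was the lowest and D542G placebo 3 the highest of the placebo libraries for all 3 genes, and E2 lay wholly above placebo for Birc5 and Ccnb1 but not for Aurkb. Birc5 differed by 2.20 ± 1.05 after E2 (adjusted p = 0.156), Ccnb1 by 1.78 ± 1.27 (adjusted p = 0.368) and Aurkb by 1.0 ± 1.04 (adjusted p = 0.558).

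P4 alone in D542G cells called 0 of 36, against 9.49% of all genes called higher and 8.88% lower. At an unadjusted p under 0.05 1 gene passed, and DESeq2 called 1. Without WT placebo 2 and WT P4 2 edgeR called 2 higher, Ccnb2 and Ckap2l, against 9.14% of all genes. The median was 0.73 with all libraries. E2+P4 called 4 higher and 0 lower, against 13.0% and 12.4% of all genes, with a median of 1.85. They were Ccnf, which rose by 2.54 ± 0.63 (adjusted p = 0.00362), Ckap2l, a spindle protein, by 2.26 ± 0.70 (adjusted p = 0.0175), Tpx2, which activates Aurora A on the spindle, by 2.39 ± 0.85 (adjusted p = 0.0383) and Cdc20 by 1.90 ± 0.71 (adjusted p = 0.0478). Of these, the call of Ccnf held in all 12 alternatives. The call of Ckap2l was lost in 3 of 12 (adjusted p up to 0.0966), without D542G placebo 1, D542G placebo 2 or D542G E2+P4 3, and that of Tpx2 in 5 of 12 (adjusted p up to 0.162). Counts ran from 1, without D542G placebo 1, D542G placebo 2 or D542G E2+P4 3, to 9, without D542G placebo 3. Without D542G E2+P4 1 the count was 2. DESeq2 called 9 and edgeR without a filter 2, while edgeR without WT placebo 2 and WT P4 2 called 24 higher, against 12.9% of all genes, with a median of 1.84. D542G E2+P4 2 was the low library of its group: Cdk1 was at 77.4, 32.0 and 78.5 CPM and Ccnb1 at 7.71, 0.912 and 6.88 CPM. Of the marker lists, 4 of 12 basal, 4 of 9 luminal progenitor and alveolar, 4 of 9 fibroblast, 3 of 11 leukocyte, 2 of 7 endothelial, 1 of 5 adipocyte and 0 of 4 erythroid markers were called higher in D542G E2+P4, and 8 of 10 hormone-sensing markers lower. The sums did not overlap for leukocyte (66.5 to 99.8 CPM against 13.5 to 24.5 CPM), endothelial (297.7 to 314.5 against 137.9 to 210.7 CPM), adipocyte (59.8 to 195.3 against 10.4 to 38.4 CPM) or erythroid markers (78.0 to 249.4 against 18.2 to 52.9 CPM). Basal sums (202.3 to 377.5 against 47.6 to 376.0 CPM) and fibroblast sums (159.3 to 471.0 against 263.8 to 941.3 CPM) overlapped. Single markers went both ways. Dcn lay below placebo, at 87.3 to 176.0 CPM against 240.3 to 915.7 CPM, and so did Krt5, at 2.52 to 3.19 CPM against 3.36 to 115.8 CPM. Col1a1 lay above it, at 8.0 to 48.0 CPM against 0.768 to 2.11 CPM. Ptprc overlapped, at 0.313 to 1.26 CPM against 0.597 to 0.841 CPM. Their part in the result was not tested.

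In Y541S cells most of the genes were higher in every hormone library than in any placebo library, but the difference seldom passed the test. Cdk1 was at 39.1, 57.4 and 36.6 CPM in Y541S placebo, at 137.1, 69.2 and 116.9 CPM after E2, at 73.5, 65.8 and 66.1 CPM after P4 and at 130.4, 100.3 and 113.3 CPM after E2+P4. No hormone library overlapped the placebo libraries. Aurkb was at 11.5, 30.1 and 25.5 CPM, then 99.9, 42.6 and 74.5 CPM, 41.5, 38.7 and 44.2 CPM, and 67.5, 69.7 and 68.1 CPM, again without overlap. Against Y541S placebo, Cdk1 differed by 1.28 ± 0.85 after E2 (adjusted p = 0.472) and Aurkb by 1.69 ± 1.05 (adjusted p = 0.431).

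Birc5 was at 20, 30 and 30.2 CPM in Y541S placebo, at 80.5, 50.4 and 73.5 CPM after E2, at 45.5, 43.8 and 50 CPM after P4 and at 68.7, 57.8 and 68.3 CPM after E2+P4. Ccnb1 was at 4.29, 5.1 and 3.34 CPM, then 17.8, 7.52 and 13.3 CPM, 8.57, 6.35 and 8.58 CPM, and 12.2, 10.7 and 10.5 CPM. Neither overlapped the placebo libraries under any hormone. Mki67 was at 15, 23.8 and 47.1 CPM, then 55.3, 43.4 and 29.7 CPM, 39.2, 43.8 and 36 CPM, and 50.4, 43.3 and 57.3 CPM. Top2a was at 45.8, 91.8 and 69.1 CPM, then 157.7, 78.6 and 116.5 CPM, 112.4, 102.5 and 106.9 CPM, and 154.3, 133.2 and 168.6 CPM. Y541S placebo 5 reached the hormone range for Mki67, and Y541S placebo 3 reached the E2 range for Top2a. After E2, Birc5 differed by 1.35 ± 1.01 (adjusted p = 0.537), Ccnb1 by 1.60 ± 1.26 (adjusted p = 0.561), Mki67 by 0.58 ± 1.08 (adjusted p = 0.843) and Top2a by 0.77 ± 1.05 (adjusted p = 0.776).

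After E2 in Y541S cells, 0 of 36 genes were called by edgeR, where 1.87% of all genes were called higher and 2.78% lower. At an unadjusted p under 0.05 5 passed, and DESeq2 called 0. The median was 1.24, against -0.01 over all genes, and 29 of 36 did not overlap, all higher, as did 13.2% of all genes in that direction. P4 called 0 of 36, against 5.14% higher and 6.13% lower, with 2 genes at an unadjusted p under 0.05, 1 called by DESeq2 and a median of 0.69; 30 lay wholly above placebo and 1 wholly below, as did 17.2% and 13.8% of all genes. E2+P4 called 1 of 36, Ccnf, against 8.43% called higher and 10.1% lower, with a median of 1.07, and 32 lay wholly above placebo, as did 18.9% of all genes. Leaving out WT placebo 2 and WT P4 2 gave counts of 1 after E2, Cenpa, 0 after P4 and 2 after E2+P4, Ccnf and Cenpa. Of all genes, 1.86% were called higher and 2.6% lower there after E2, and 8.21% and 9.76% after E2+P4.

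Markers of other cells moved in Y541S cells too. For P4 3 of 12 basal markers were called lower, and the basal sum was 111.1 to 422.6 CPM against 187.2 to 623.6 CPM under placebo. Acta2 lay below placebo, at 15.5 to 18.1 CPM against 74.3 to 114.5 CPM. Oxtr lay above it, at 16.8 to 27.5 CPM against 13.5 to 15.1 CPM. Of leukocyte markers 1 of 11 was called lower, with a sum of 21.1 to 53.5 CPM against 55.1 to 154.0 CPM. Most of that sum was Cd74, at 13.3 to 29.4 CPM against 36.5 to 110.1 CPM. The mean log2 CPM of the leukocyte list overlapped, at -1.96, -0.4 and -2.18 against -1.6, 0.65 and 0.97. Ptprc overlapped as well, at 0.0686 to 1.81 CPM against 0.0735 to 6.47 CPM. For E2+P4 5 of 10 hormone-sensing markers were called lower, with a sum of 12462.1 to 14734.9 CPM against 18670.0 to 24387.7 CPM, and leukocyte markers summed to 31.5 to 50.1 CPM (1 of 11 called lower). Here too the mean log2 CPM of leukocyte markers, at -1.61, -1.13 and -0.68, overlapped placebo. For E2 1 of 12 basal markers was called higher and 1 lower, with a sum of 212.7 to 729.8 CPM against 187.2 to 623.6 CPM, and 0 of 11 leukocyte markers were called. Luminal progenitor and alveolar markers summed to 4369.4 to 7434.4 CPM after E2 against 2895.7 to 5393.7 CPM. Their mean log2 CPM was 7.94, 7.47 and 6.3 against 3.71, 3.39 and 6.81. The last is Y541S placebo 5, where Kit was at 665.5 CPM against 158.5 and 77.3 CPM. Their sum lay below placebo after P4 (1664.3 to 1799.5 CPM) and E2+P4 (1763.0 to 2309.3 CPM), while their mean log2 CPM overlapped placebo. The part of these cells in the results was not tested.

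Placebo levels in the mutants were compared with WT placebo to ask how the genes stood without added hormone. Anln was at 126.2, 77.3 and 139.1 CPM in Y541S placebo against 20.1, 42.5 and 27.8 CPM in WT placebo, with no overlap even with WT placebo 2. It rose by 1.92 ± 0.44 (adjusted p = 0.00348) and the call held in all 12 alternatives. It was the only one of 36 called with all libraries, against 7.18% of all genes called higher and 6.22% lower. When both libraries were left out, 32 were called higher, against 7.47% of all genes, with a median of 3.56 in place of 1.03, and without WT placebo 2 alone 28. Mki67 was at 15.0, 23.8 and 47.1 CPM in Y541S placebo and moved from 1.10 ± 1.09 (adjusted p = 0.571) to 4.67 ± 0.88 (adjusted p = 6.37e-04). Top2a was at 45.8, 91.8 and 69.1 CPM and moved from 1.0 ± 1.06 (adjusted p = 0.6) to 4.74 ± 0.92 (adjusted p = 8.24e-04). Basal markers summed to 187.2 to 623.6 CPM in Y541S placebo with 2 of 12 called higher than in WT placebo, and leukocyte markers to 55.1 to 154.0 CPM with 3 of 11 called higher. Fibroblast markers summed to 4047.7 and 4133.4 CPM in Y541S placebo 2 and 3, to 458.8 CPM in Y541S placebo 5 and to 37.9 to 324.3 CPM in WT placebo. Most of the sum in Y541S placebo 2 and 3 was Dcn, at 3985.1 and 4053.8 CPM against 204.9 CPM in Y541S placebo 5. Col1a1, another fibroblast marker, went the other way, at 3.06 and 6.6 CPM against 54.3 CPM. The list's mean log2 CPM was likewise lower there, at 2.66 and 2.93 against 4.12 in Y541S placebo 5. The part of these cells in the result was not tested.

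For D542G placebo against WT placebo, with all libraries 0 of 36 were called, where 1.24% of all genes were called higher and 0.782% lower; 0 had an unadjusted p under 0.05, DESeq2 called 0, and the median was -0.37. Without both libraries 7 were called higher, against 0.813%, with a median of 2.20. They were Ccnb2, Plk1, Cdca3, Cenpf, Birc5, Cdca8 and Top2a. Cenpf, a kinetochore protein, rose by 4.34 ± 0.73 (adjusted p = 0.00134) and Birc5 by 3.46 ± 0.73 (adjusted p = 0.012). With WT placebo 2 alone left out 1 gene was called. The 3 placebo libraries of D542G spread over a wide range, with Top2a from 4.79 to 62.3 CPM.

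Mutant and WT cells were also compared under the same hormone, in 6 comparisons chosen after the levels had been seen. The P4 comparison of Y541S with WT held the most calls. Cdk1 was at 73.5, 65.8 and 66.1 CPM in Y541S P4 and at 22.4, 3.97, 2.75 and 2.0 CPM in WT P4. Bub1b was at 78.4, 99.7 and 86.2 CPM against 26.6, 12.4, 7.24 and 9.61 CPM, and Anln at 65.1, 72.2 and 73.9 CPM against 26.7, 11, 7.97 and 12.9 CPM. The groups did not overlap for any of these 3, WT P4 2 included. With all libraries 24 of 36 were called higher and 0 lower, against 14.6% and 13.0% of all genes, with a median of 2.59 against -0.05 over all genes. Anln rose by 2.26 ± 0.41 (adjusted p = 1.22e-04), Bub1b by 2.65 ± 0.53 (adjusted p = 3.54e-04) and Cdc20 by 3.14 ± 0.66 (adjusted p = 6.77e-04), and these 3 calls held in all 13 alternatives. Cdk1 rose by 3.12 ± 0.82 (adjusted p = 0.00502) and Birc5 by 3.19 ± 0.98 (adjusted p = 0.015). When the libraries with identifiers of a later number series, WT P4 4, WT P4 5 and Y541S placebo 5, were left out, Cdk1 differed by 2.37 (adjusted p = 0.103) and Birc5 by 2.34 (adjusted p = 0.175). With the replicate number as a block, Birc5 differed by 2.78 (adjusted p = 0.0845).

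By role, the 24 called were 3 of 9 cyclins and kinases, 3 of 5 checkpoint and APC/C genes, 5 of 7 centromere and kinetochore genes, 10 of 10 spindle genes, 2 of 2 of cytokinesis and 1 of 3 chromosome genes. Mki67 was at 39.2, 43.8 and 36 CPM in Y541S P4 against 37.6, 1.32, 0.672 and 2.39 CPM, and Top2a at 112.4, 102.5 and 106.9 CPM against 77.4, 7.17, 3.94 and 4.2 CPM. WT P4 2 reached the Y541S range for Mki67 and lay below it for Top2a. Mki67 differed by 1.91 ± 1.01 (adjusted p = 0.168) with all libraries and rose by 4.76 ± 0.74 (adjusted p = 2.62e-05) without both. Without both libraries 34 of 36 were called, all but Ccnf and Aurka, with a median of 4.49, against 14.4% of all genes. The count was 13 without WT P4 3, 12 without WT P4 4 or WT P4 5, 14 without Y541S P4 2 or Y541S P4 3 and 3 when WT P4 4, WT P4 5 and Y541S placebo 5 were left out together. With the replicate block it was 8. Basal markers summed to 111.1 to 422.6 CPM in Y541S P4 (1 of 12 called higher) and fibroblast markers to 449.5 to 682.7 CPM against 60.6 to 409.4 CPM in WT P4 (1 of 9 called higher, 2 lower). Most of the fibroblast sum in Y541S P4 was Dcn, at 425.6 to 642.1 CPM against 17.1 to 235.6 CPM in WT P4. Col1a1 went the other way, at 0.492 to 2.17 CPM against 3.17 to 68.6 CPM. Of hormone-sensing markers 6 of 10 were called lower. Their part in the result was not tested.

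Under E2, Y541S exceeded WT cells for 4 of 36 genes, against 6.49% of all genes called higher and 5.79% lower, with a median of 1.29. Anln was at 289.7, 163.5 and 234.1 CPM in Y541S E2 against 67.3, 27.6 and 70.7 CPM in WT E2, and rose by 2.05 ± 0.44 (adjusted p = 0.00266), in all 12 alternatives. Kif2c, a motor that takes microtubules apart, was at 61.8, 30.1 and 43.6 CPM against 18.2, 6.65 and 13.6 CPM, and rose by 1.81 ± 0.58 (adjusted p = 0.0365). Bub1b rose by 1.76 ± 0.56 (adjusted p = 0.0382) and Aurka by 1.36 ± 0.45 (adjusted p = 0.0436). The calls of Kif2c and Bub1b were lost in 5 of 12 alternatives each. Anln alone was called without WT E2 2, WT E2 3, Y541S E2 1 or Y541S E2 3, and 1 gene was called without a filter on low counts. Under E2+P4, 3 were called higher, against 6.03% (8.5% were called lower), with a median of 1.5, and 32 of 36 lay wholly above WT E2+P4, as did 18.8% of all genes. Cenpa was at 99.1, 86.2 and 86.6 CPM against 37.2, 17.8 and 14.8 CPM and rose by 1.96 ± 0.58 (adjusted p = 0.0218). Anln rose by 1.38 ± 0.44 (adjusted p = 0.0309) and Bub1b by 1.67 ± 0.56 (adjusted p = 0.0446). These calls were lost in 3, 4 and 6 of 12 alternatives, and 0 genes were called without WT E2+P4 2 or WT E2+P4 3. Without WT E2+P4 1 the count was 7, without any 1 of the Y541S E2+P4 libraries 1, and by DESeq2 6. Without WT placebo 2 and WT P4 2 it was 10, where 6.17% of all genes were called higher and 8.1% lower.

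D542G cells were set against WT cells in the same way. Under E2, Kif2c was at 37.7, 46.7 and 45.1 CPM in D542G E2 and rose by 1.75 ± 0.58 (adjusted p = 0.0217), and Anln rose by 1.16 ± 0.43 (adjusted p = 0.0447). These were the 2 called of 36, against 15.4% of all genes called higher and 13.8% lower, with a median of 0.54. The call of Kif2c was lost in 3 of 12 alternatives (adjusted p up to 0.107) and that of Anln in 6 of 12 (adjusted p up to 0.206), and counts without 1 library ran from 0 to 2. With WT placebo 2 and WT P4 2 left out, the count was 3, where 14.6% of all genes were called higher and 13.4% lower. Under P4, 0 were called with all libraries, against 6.24% called higher and 6.8% lower, with 7 at an unadjusted p under 0.05 and 4 called by DESeq2. With WT placebo 2 and WT P4 2 left out, 29 were called higher, against 6.75%, and the median moved from 1.23 to 3.06; without WT P4 2 alone 26 were called. Mki67 was at 21.4, 14.6 and 16.3 CPM in D542G P4 and rose by 3.57 ± 0.71 (adjusted p = 0.00117) without both, against 0.72 ± 1.0 (adjusted p = 0.695) with them. Under E2+P4, 0 of 36 were called, against 2.12% higher and 4.56% lower, with 1 at an unadjusted p under 0.05, 0 by DESeq2 and 2 without WT E2+P4 1. Without both libraries 1 was called, where 2.05% of all genes were called higher and 4.18% lower.

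**Figure D3:**
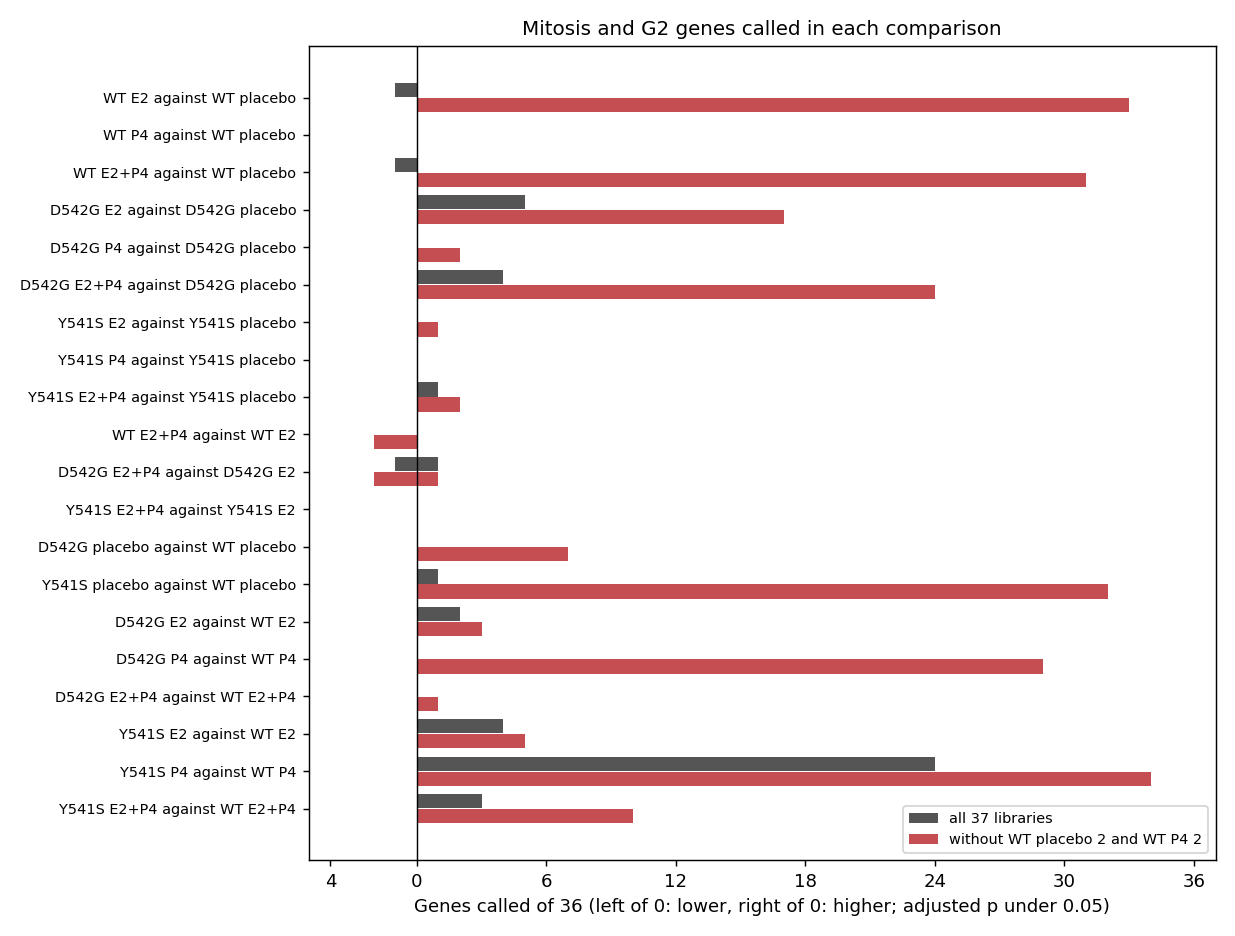
Number of the 36 genes called higher or lower (adjusted p under 0.05) in each of the 20 comparisons between a pair of groups, with all 37 libraries and without WT placebo 2 and WT P4 2. The bars differ for E2 in WT cells (1 against 33), where WT placebo is compared, and also for E2+P4 in D542G cells (4 against 24), where neither library is, and Y541S P4 against WT P4 has the most calls with all libraries (24).

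For P4 added to E2, 1 of the 36 genes was called higher and 1 lower in D542G cells, against 10% and 10.8% of all genes, and 0 in WT and Y541S cells. The median difference between E2+P4 and E2 was -0.33 in WT, 0.04 in D542G and -0.17 in Y541S cells, and these values rest on separate libraries. Ccnf and Anln went opposite ways. Ccnf was at 9.37, 21.4 and 6.42 CPM in D542G E2 and at 47.6, 26.0 and 62.3 CPM in D542G E2+P4, and at 41.9, 12.9 and 35.1 CPM in Y541S E2 and at 67.9, 69.9 and 77.9 CPM in Y541S E2+P4. All E2+P4 libraries of both mutants lay above the E2 libraries of the same genotype. Ccnf rose by 1.87 ± 0.62 in D542G (adjusted p = 0.0297) and differed by 1.26 ± 0.60 in Y541S (adjusted p = 0.204) and 0.46 ± 0.60 in WT cells (adjusted p = 0.66). The D542G call was lost without D542G E2 1 (1.71, adjusted p = 0.109), D542G E2 3 (1.56, adjusted p = 0.134), D542G E2+P4 1 (1.84, adjusted p = 0.0599) or D542G E2+P4 3 (1.57, adjusted p = 0.111).

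Anln was at 122.6, 143.7 and 102.7 CPM in D542G E2 and at 47.9, 21.4 and 51.5 CPM in D542G E2+P4. It was at 289.7, 163.5 and 234.1 CPM in Y541S E2 and at 86.0, 94.8 and 130.5 CPM in Y541S E2+P4. The groups did not overlap in either mutant, and in WT cells, at 67.3, 27.6 and 70.7 CPM against 58.9, 28.5 and 32.2 CPM, they did. Anln fell by 1.61 in D542G cells (SE 0.44, adjusted p = 0.0084) and differed by -1.14 ± 0.43 in Y541S (adjusted p = 0.0919) and -0.47 ± 0.43 in WT cells (adjusted p = 0.501). The D542G call was lost without D542G E2+P4 2 (-1.31, adjusted p = 0.0665). Whether these differences differed between genotypes was not tested.

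Beside Ccnf and Anln no other gene of the 36 was called for P4 added to E2 with all libraries. In WT cells 0 of 36 were called, against 10.2% and 8.28%, with 1 at an unadjusted p under 0.05 and 1 called by DESeq2. Without WT placebo 2 and WT P4 2, and likewise without WT E2+P4 1, 2 genes were called lower. In the first of these they were Cenpa (-1.43 ± 0.32, adjusted p = 0.00243) and Ccnb2 (-1.32 ± 0.39, adjusted p = 0.0171), against 7.96% of all genes. In Y541S cells 0 of 36 were called, against 4.47% and 5.94%, with 2 at an unadjusted p under 0.05 and 1 called lower by DESeq2.

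**Figure D4:**
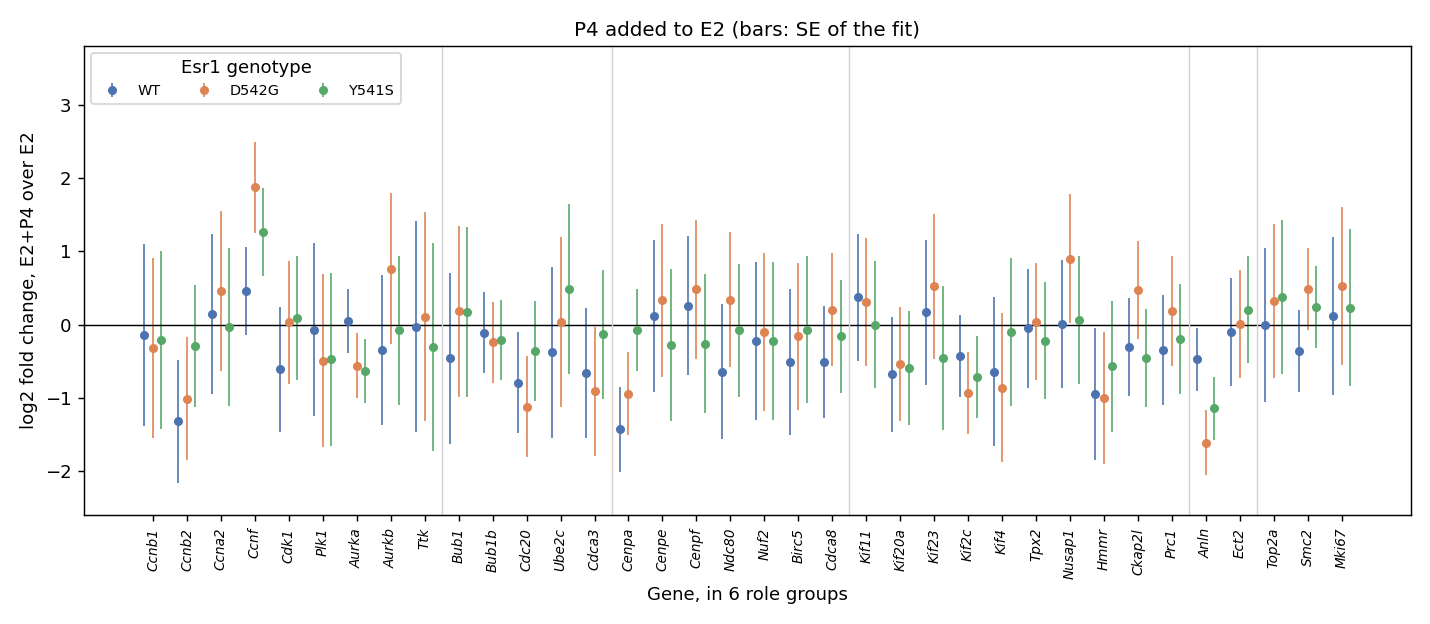
Log2 fold change of E2+P4 over E2 for each of the 36 genes in WT, D542G and Y541S cells, with genes in 6 role groups and bars of 1 SE of the fit. Ccnf is highest and Anln lowest in both mutants.

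Ccnf was also the one gene called for E2+P4 against placebo in Y541S cells. It was at 9.97, 10.9 and 11.5 CPM in Y541S placebo, and its level of 67.9, 69.9 and 77.9 CPM in Y541S E2+P4 was higher by 2.74 ± 0.64 (adjusted p = 0.00313), in all 12 alternatives. In D542G placebo it was at 9.34, 3.63 and 10.4 CPM. After P4 alone it was at 29.0, 28.8 and 40.8 CPM in Y541S, above the placebo libraries, and at 14.7, 5.43 and 15.1 CPM in D542G, overlapping them. In WT cells it was at 4.18, 17.3 and 6.09 CPM under placebo, at 36, 15.8 and 9.62 CPM after E2, at 26.1, 26.1, 6.72 and 7.0 CPM after P4 and at 42.7, 18.3 and 23.4 CPM after E2+P4. The E2+P4 libraries lay above the placebo libraries, WT placebo 2 included.

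Aurka was the gene called lower in WT cells given E2. It was at 43.0, 60.2 and 53.0 CPM in WT placebo and at 59.1, 48.5, 57.7 and 50.5 CPM in WT P4, and at 31.9, 20.8 and 10.7 CPM in WT E2 and 24.3, 19.2 and 22.3 CPM in WT E2+P4. Every WT library given E2 lay below every WT library not given it. It fell by 1.3 with E2 (SE 0.45, adjusted p = 0.0266) and by 1.25 with E2+P4 (SE 0.45, adjusted p = 0.0415). The E2 call was lost in 5 of 12 alternatives, without WT placebo 2, WT placebo 3, WT E2 2 or WT E2 3, or without WT placebo 2 and WT P4 2 together (-1.18, adjusted p = 0.0763), and its adjusted p ran from 0.00915 to 0.13. The E2+P4 call was lost in 8 of 12, with each of the 6 libraries left out in turn among them, and its adjusted p ran from 0.018 to 0.127.

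In Y541S cells Aurka was at 22.5, 34.3 and 14.8 CPM under placebo and at 75.5, 28.1 and 59.1 CPM after E2, a difference of 1.18 ± 0.44 (adjusted p = 0.138). In D542G cells it was at 31.0, 45.4 and 40.9 CPM and at 32.3, 62.8 and 30.2 CPM, a difference of 0.09 ± 0.44 (adjusted p = 0.917). The difference in E2 response between Y541S and WT cells, tested as an interaction, was 2.48 ± 0.63 (adjusted p = 0.0132), and 2.37 ± 0.68 without WT placebo 2 and WT P4 2 (adjusted p = 0.0295). It was 2.17 without Y541S E2 1 (adjusted p = 0.0501) and 2.25 with Y541S placebo 5, WT P4 4 and WT P4 5 left out (adjusted p = 0.0608).

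**Figure D5:**
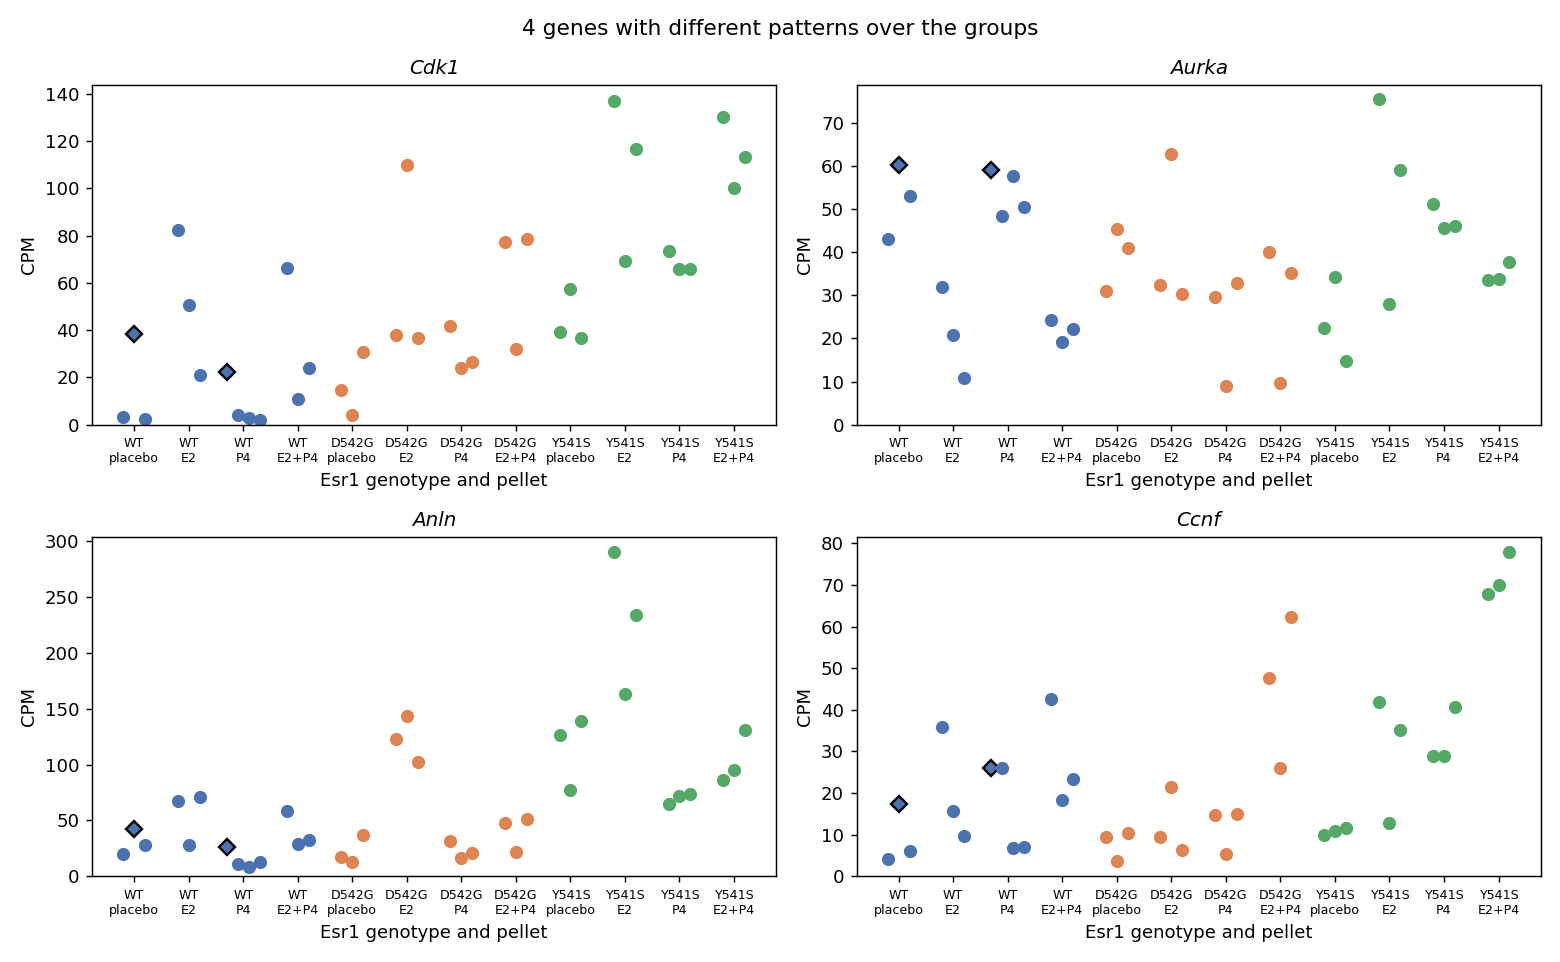
Level of Cdk1, Aurka, Anln and Ccnf in each library (CPM), by Esr1 genotype and treatment, with diamonds for WT placebo 2 and WT P4 2. Aurka is lower in the WT E2 and WT E2+P4 libraries than in the other WT libraries, Anln is highest in Y541S E2 and Ccnf in Y541S E2+P4.

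The interaction tests asked whether the mutants responded to each hormone by another amount than WT cells, and for E2 and E2+P4 the sign of the set's median turned when WT placebo 2 and WT P4 2 were left out. For E2 in Y541S, 1 of 36 was called, Aurka, against 4.02% of all genes higher and 4.01% lower, and the set's median was 0.16. With WT placebo 2 and WT P4 2 left out, 10 were called lower and Aurka higher, with a median of -2.42, against 4.1% of all genes lower. Mki67 differed there by -3.56 ± 1.01 (adjusted p = 0.0287), Birc5 by -3.86 ± 0.89 (adjusted p = 0.00709) and Ccnb2 by -3.72 ± 0.62 (adjusted p = 4.90e-04). For E2+P4 in Y541S, 0 were called, against 3.0% higher and 5.68% lower (1 at an unadjusted p under 0.05, 1 by DESeq2). Without both libraries 8 were called lower, against 4.51% of all genes, with the median moving from 0.39 to -2.16. In D542G cells the E2 median moved from 0.90 to -1.77 and the E2+P4 median from 1.0 to -1.51. There 0 were called for E2, against 4.52% and 4.71%, and 0 for E2+P4, against 1.16% and 3.14%, with 2 and 0 at an unadjusted p under 0.05. Without both libraries 4 were called lower for E2, Cenpf, Birc5, Cdca8 and Top2a, against 4.89% of all genes. For E2+P4 1 was called lower, Cenpf, against 1.69%. For P4, 0 were called in D542G, against 1.51% and 1.83%, and 0 in Y541S, against 3.46% and 3.87%, in each case also without both libraries, with 1 at an unadjusted p under 0.05 in each with all libraries. The P4 medians kept their sign, at 1.59 and 0.75 in D542G and 1.54 and 0.65 in Y541S with all libraries and without both. Without WT P4 2 alone 5 were called higher in D542G and 11 in Y541S. All 6 tests use WT placebo, so their values are not independent.

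The 36 genes were set beside 72 other G2 and M phase genes and 33 S phase genes that were tested. For E2 in WT cells 10 of 72 were called higher and 1 lower, and 15 of 33 S phase genes were called higher, with all libraries and against 15.6% of all genes; the medians were 1.02 and 1.07. Pcna, the sliding clamp of DNA replication, rose by 1.06 ± 0.22 (adjusted p = 5.05e-04), Cenpw, a kinetochore protein, by 2.06 ± 0.49 (adjusted p = 0.00185) and Cks1b, a partner of CDKs, by 1.43 ± 0.36 (adjusted p = 0.00286). Leaving out both libraries gave 53 called higher and 1 lower of 72, and 26 of 33 called higher, against 14.7% and 14.3% of all genes. For E2 in D542G cells 10 of 72 were called higher, among them Cenpw (2.81 ± 0.51, adjusted p = 2.55e-04) and Mad2l1, the checkpoint protein MAD2 (2.13 ± 0.45, adjusted p = 0.00139), and 1 of 33 S phase genes, Exo1, a nuclease of DNA repair (2.47 ± 0.80, adjusted p = 0.0331). The share of all genes was 8.36%. For E2+P4 in D542G cells 20 of 72 were called higher and 1 lower, and 20 of 33 were called higher, against 13.0% and 12.4% of all genes. For E2 in Y541S cells 1 of 72 was called, Pttg1 (securin, 0.55 ± 0.15, adjusted p = 0.0367), and 0 of 33, against 1.87% of all genes higher and 2.78% lower. For Y541S against WT cells under P4, 43 of 72 were called higher and 3 lower, and 28 of 33 were called higher, beside 24 of the 36. The shares of all genes were 14.6% higher and 13.0% lower. Under E2, D542G cells had 7 of 33 S phase genes called lower than WT cells, against 13.8% of all genes. The median was -0.60, where the 36 genes had a median of 0.54. The difference between the lists was not tested.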

How the data were processed

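The authors deposited whole-number counts per gene for 37 libraries, with RPKM that served for no test here. Build GRCm38 is named in the submitters' processing notes. For aligner, counter and strand: not given in the sources used here. Counts covered 52636 genes, 147 of them without a symbol (at most 0.007% of any library's counts).

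Groups came from the titles. Tests used edgeR 4.0.16 under R 4.3.3 on all 37 libraries: filterByExpr, TMM factors (0.77 to 1.17), robust glmQLFit with a coefficient per group and glmQLFTest, with Benjamini-Hochberg adjustment over 18426 genes in each of 26 comparisons, 6 of them added after the levels were seen. The common biological coefficient of variation was 0.458 with 25 residual degrees of freedom. SE is the size of a fold change on the log2 scale divided by the root of its F statistic. All 39 pairs of libraries from 1 group differed by more than sampling noise (chi-square over its degrees of freedom at least 23.3). The script was tested on simulated data.

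Named genes are up to 3 called genes of smallest p per direction in each comparison and the panel Mki67, Top2a, Ccnb1, Cdk1, Aurkb and Birc5. Others shown by level (Ccnb2, Cdc20, Cenpa, Bub1b, Kif2c, Aurka, Anln, Ccnf) were called in some comparison. Kit, Krt5, Oxtr, Col1a1, Pecam1 and Cdh5 were picked after their values were seen. So were the comparisons for which Dcn, Cd74 and Ptprc are shown. The 36 genes and the lists were chosen with earlier results of these data known. Alternatives were RLE factors, DESeq2 1.42.0, no filter, a replicate block, each library left out, WT placebo 2 and WT P4 2 left out together, and the libraries of a later identifier series left out. Same-numbered libraries were not treated as pairs: their deviations correlated above 0.1 in 3 of 53 pairs. The highest r, 0.56, was between WT placebo 2 and WT P4 2, and both pairs that WT placebo and WT P4 share were above 0.1 (0.56 and 0.17). Near copies were searched with BLAST 2.17.0.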

Additional observations from a re-analysis of the deposited data

Results flagged for a closer look

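WT P4 2 lay far from the other 3 libraries of its group, by Dixon's ratio of its gap to the group's range. Its summed level of the 36 genes was 814.1 CPM, and by single gene 28 of 36 passed the same limit there. In it, Ccnb1 was at 5.29 CPM, Cdk1 at 22.4 CPM, Aurkb at 28.0 CPM, Birc5 at 17.5 CPM, Top2a at 77.4 CPM and Mki67 at 37.6 CPM. Chance passes this limit in about 1 in 20 groups. That rate does not apply here, as WT P4 2 had already been recognised partly by these genes, so the ratio only describes it. The 28 genes share 1 library and are not separate cases. WT P4 is the only group of 4 libraries, and groups of 3, WT placebo included, were not examined in this way.

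The E2 response of Aurka differed between Y541S and WT cells by 2.48 on the log2 scale (edgeR interaction, adjusted p = 0.0132), with Aurka lower after E2 in 3 of 3 WT libraries than in any WT placebo library.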

How the results depend on the processing

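Numbers of the 36 genes called moved as follows. Shares of all genes are given above only for edgeR with all libraries and without WT placebo 2 and WT P4 2. The other counts cannot be read as particular to the set. DESeq2 gave 3 for E2 and 2 for E2+P4 in WT cells, 11, 1 and 9 for E2, P4 and E2+P4 in D542G cells, 1 for P4 in Y541S cells, 1 and 1 for P4 added to E2 in WT and Y541S cells, 1 for the E2+P4 response of Y541S against WT cells, 4 for D542G against WT cells under P4 and 6 for Y541S against WT cells under E2+P4. Without a filter the counts were 0 for E2+P4 in WT and 2 in D542G cells, and 1 and 1 for D542G and Y541S against WT cells under E2. Without the later identifier series they were 2 and 2 for E2 and E2+P4 in WT cells, 0 for the E2 response of Y541S and 3 for Y541S against WT cells under P4.

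Without WT placebo 2 and WT P4 2 the counts were 33 and 31 for E2 and E2+P4 in WT cells, 17, 2 and 24 for E2, P4 and E2+P4 in D542G cells, 1 and 2 for E2 and E2+P4 in Y541S cells, 2 for P4 added to E2 in WT cells, 7 and 32 for the D542G and Y541S placebo groups, 4 and 1 for the E2 and E2+P4 responses of D542G and 11 and 8 for those of Y541S, 29 and 1 for D542G against WT cells under P4 and E2+P4, and 10 for Y541S against WT cells under E2+P4. RLE factors moved no count past 1.5 times.

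Leaving out 1 library at a time, counts for E2, P4 and E2+P4 ran from 0 to 32, 0 to 7 and 0 to 28 in WT, 3 to 5, 0 to 0 and 1 to 9 in D542G and 0 to 0, 0 to 0 and 1 to 1 in Y541S cells. For P4 added to E2 they ran from 0 to 2, 1 to 2 and 0 to 0 in WT, D542G and Y541S cells. For the placebo groups against WT placebo they ran from 0 to 1 (D542G) and 1 to 28 (Y541S). For responses to E2, P4 and E2+P4 against WT cells they ran from 0 to 1, 0 to 5 and 0 to 0 (D542G) and 0 to 3, 0 to 11 and 0 to 1 (Y541S). Against WT cells under E2, P4 and E2+P4 they ran from 0 to 2, 0 to 26 and 0 to 2 (D542G) and 1 to 4, 12 to 34 and 0 to 7 (Y541S).

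The replicate block gave 2 for E2 in WT cells and 8 for Y541S against WT cells under P4 and moved no other count past 1.5 times; no comparison with 3 or more pairs had every pair correlated. For E2 in WT cells the sign turned for Mki67 (-0.13) and Top2a (-0.09) without WT E2 1, and for Ccnb1 without WT placebo 1 (-0.22), WT placebo 3 (-0.21) or WT E2 1 (-0.03). Without WT placebo 2 alone these 3 genes rose, by 4.14 (Mki67), 4.33 (Top2a) and 5.19 (Ccnb1). Counts rise without WT placebo 2 and WT P4 2 also where neither is compared, because the spread is shared over all libraries; elsewhere the cause was not tested. The lowest counts, such as 2 for Ccnb1 in WT placebo 1, limit fold changes against WT placebo.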
